A study of Homo sapiens with 12 samples.

Results

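The 10 genes described here are targets of the Wnt pathway, namely EPHB2, EPHB3, MYC, AXIN2, LGR5, ASCL2, SOX9, RNF43, ZNRF3 and NKD1. They were taken by gene name from the 57736 genes of the count tables, and 27326 of those genes were detected at all. The study asked how an extract of the red seaweed Hypnea musciformis (HME) acts on cancer cells, and measured RNA by 3′ end sequencing in HepG2, a line from a human liver carcinoma, and Ls174, a line from a human colon carcinoma. Both lines are labelled wild type and were grown in DMEM with serum. The 4 groups, each of 3 biological replicates, are HepG2 control, HepG2 HME, Ls174 control and Ls174 HME. HME cells received 0.7 mg/ml of extract by the labels (the study's methods state a slightly higher concentration) for 24 h, and control cells received no treatment, with no solvent control named. The study chose its dose from the concentrations that inhibited growth in these lines. After 24 h with HME in medium without serum, it reported fewer viable and more necrotic cells in both lines. The part of dying cells in the RNA was not tested. The 10 genes were selected on their names with the fold changes of these libraries already in view, HME against control in each line and between the lines. Their values in these comparisons are therefore a description, with no test, and nothing is supported by them.

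In Wnt signalling, a ligand bound to Frizzled and LRP receptors stops the destruction complex from degrading beta-catenin, which then enters the nucleus and activates genes together with TCF/LEF factors. Both lines are known to carry an activating mutation of the beta-catenin gene CTNNB1, so that beta-catenin escapes degradation without a ligand. In the intestine, this pathway maintains stem and progenitor cells at the crypt base, and in the liver it sets the gene expression of hepatocytes near the central vein.

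Of the 10 genes, AXIN2, RNF43, ZNRF3 and NKD1 dampen the pathway that activates them. AXIN2 is a scaffold of the destruction complex, RNF43 and ZNRF3 are membrane ubiquitin ligases that remove Frizzled receptors, and NKD1 acts on Dishevelled. EPHB2 and EPHB3 are receptor tyrosine kinases for ephrin-B ligands that position cells along the crypt, and LGR5 is a receptor for R-spondins and a marker of intestinal stem cells. MYC drives growth and proliferation, ASCL2 is a transcription factor of intestinal stem cells, and SOX9 is a transcription factor of crypt cells and of bile duct cells.

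Because TCF factors bind a known short motif, the 1000 bases before the annotated start of 9 of the genes in GRCh37 were searched on both strands for CTTTGAA and CTTTGAT, whose reverse complements are TTCAAAG and ATCAAAG. MYC was not searched. A match was found for 3 of the 9 genes (33.3%), against 4563 of 19893 protein-coding genes (22.9%). With 9 genes searched, nothing is read from this share. The 4 matches, which lie before the starts of AXIN2, LGR5 and NKD1, are shown with their flanks. The motif is in capitals and each sequence is read 5′ to 3′ on the strand of the gene.
AXIN2, chr17:63558593-63558619, minus strand: gtgggagaaaTTCAAAGgtgacaatgg
LGR5, chr12:71832987-71833013, plus strand: tagcctagagCTTTGATtttagggcaa
NKD1, chr16:50581579-50581605, plus strand: accaaggaagATCAAAGactcagcggt
NKD1, chr16:50582213-50582239, plus strand: ccagccttgcCTTTGATgcgccgcacc
The motif began 843 bases before the start of AXIN2, 581 before that of LGR5, and 718 and 84 before that of NKD1. A match is not evidence that the site is bound, and for the other genes these letters were not in this window.

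In GRCh37, the 3′ region with nearly all counts of EPHB3 is chr3:184299411-184300394, and that of EPHB2 is chr1:23239097-23242015. The corresponding region of ZNRF3 is chr22:29449611-29453672 and that of LGR5 chr12:71978515-71980287. For MYC it is chr8:128753205-128753871, for ASCL2 chr11:2289725-2290356 and for SOX9 chr17:70120529-70122758. For AXIN2 it is chr17:63524484-63526093 and for NKD1 chr16:50667693-50670844. All of these lie in exons that hold untranslated sequence, and only that of EPHB2 also reaches into coding sequence. RNF43 alone had a second region with an appreciable count, described further on.

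The libraries held between 1790841 and 3656662 counts. HepG2 control 2 correlated with its group at 0.870 to 0.871, against 0.957 between the other 2 controls, and Ls174 control 1 at 0.876 to 0.881, against 0.977. Summed markers of hepatocytes lay between 1.61e+04 and 2.41e+04 CPM (counts scaled to a common library size) in HepG2 and between 6.79 and 148 in Ls174. Summed colon epithelium markers lay between 383 and 474 in Ls174 and between 70 and 208 in HepG2. CDX1, CDX2 and LGALS4 were higher in every Ls174 library than in any HepG2 library. VIL1 went the other way in part, at 187, 52.6 and 167 CPM in the HepG2 controls and 42, 78.7 and 66.7 in the Ls174 controls. CEACAM5 and MUC2 were at 0 in every HepG2 library, but CEACAM5 was at most 6.01 CPM in Ls174. KRT20 was at 0 in the Ls174 controls. HepG2 HME 2 held 955 CPM of mesenchymal markers, with DCN at 0. Their part in the results was not tested.

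**Figure D1:**
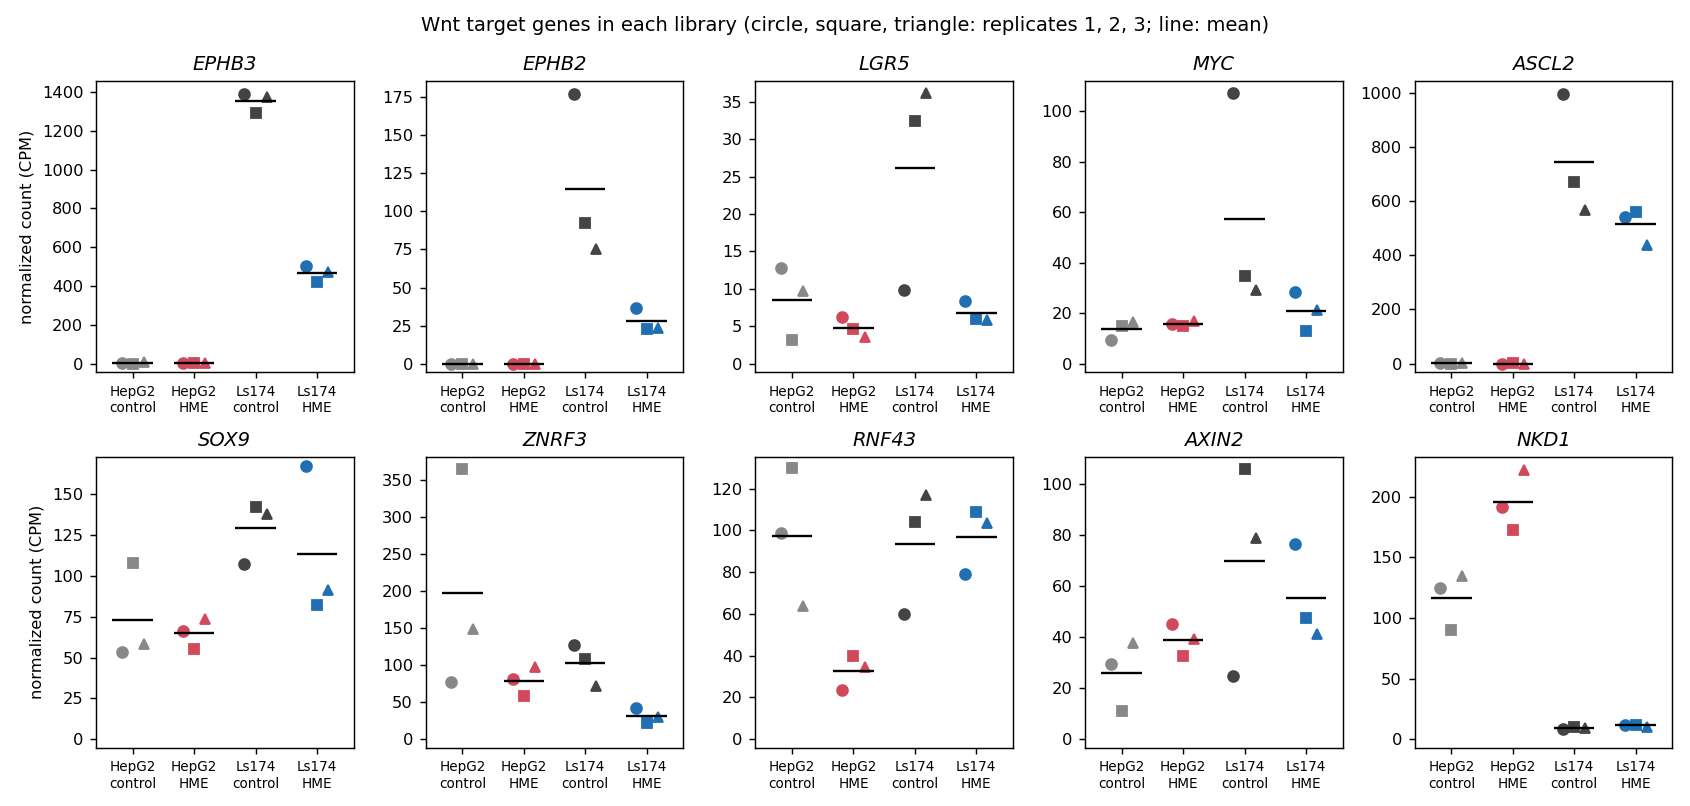
Level of each gene in every library, as CPM after TMM normalization on a linear axis that differs between panels (points: replicates 1 to 3; line: mean of 3). EPHB3, EPHB2 and ASCL2 lie at or near 0 in all HepG2 libraries, NKD1 is highest in HepG2, and the 3 Ls174 HME values lie below all Ls174 controls for EPHB3, EPHB2, LGR5, MYC, ASCL2 and ZNRF3.

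Without treatment, the lines differed most in the Eph receptors, ASCL2 and NKD1. EPHB3 had 2839, 4191 and 5403 counts in the Ls174 controls and 2, 0 and 22 in the HepG2 controls, a ratio of mean CPM of 433, with 22 of the 24 HepG2 counts in control 3. ASCL2 had 2036, 2181 and 2236 counts in the Ls174 controls and 1, 0 and 6 in the HepG2 controls, a ratio of 836, with 6 of the 7 HepG2 counts in control 3. Both ratios rest on few HepG2 counts. Without HepG2 control 3 the fitted log2 difference, HepG2 minus Ls174, moved from -8.69 to -11.68 for EPHB3 and from -9.59 to -11.66 for ASCL2. EPHB2 had 957 counts over the 3 Ls174 controls and none in any HepG2 library, so it was at least 61.8-fold higher in Ls174 (at least 15.5-fold with HME), taking 3 counts per library as the floor that a count of 0 allows. For all of these genes the lines did not overlap, and the intervals and floors cover counting error only.

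NKD1 went the other way. It stood at 125, 89.8 and 135 CPM in the HepG2 controls and at 8.31, 10.5 and 9.16 in the Ls174 controls, 12.6-fold higher in HepG2 (log2 3.66, SE 0.35). MYC stood at 9.35, 14.9 and 16.5 CPM in the HepG2 controls, below the lowest Ls174 control (29.3). Its log2 difference of HepG2 from Ls174 was -2.03 (SE 0.56), and -1.22 without Ls174 control 1.

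In the other 5 genes the control libraries of the lines overlapped. The log2 difference, HepG2 minus Ls174, was -1.56 (SE 0.62) for LGR5, -1.39 (SE 0.58) for AXIN2, -0.78 (SE 0.38) for SOX9, 1.00 (SE 0.56) for ZNRF3 and 0.10 (SE 0.40) for RNF43. Without HepG2 control 2 these values were -1.20 for LGR5, -1.04 for AXIN2, -1.18 for SOX9, 0.17 for ZNRF3 and -0.18 for RNF43. Without Ls174 control 1 they were -1.93, -1.79, -0.90, 1.18 and -0.15. SOX9 passed an adjusted p under 0.05 in edgeR without the first library (0.0182), and LGR5 (0.0227) and AXIN2 (0.026) without the second. At an adjusted p under 0.05 in edgeR over all genes, 5 of the 10 genes differed between the control lines, 1 higher and 4 lower in HepG2, where 23.5% of all 11907 genes tested did, and the same 5 had control libraries that did not overlap, where 42.6% of all genes did. The call of MYC was lost without any 1 of the HepG2 controls or Ls174 control 1 (adjusted p in edgeR from 0.0504 to 0.103). Nothing is read from that count, since the genes were chosen with the comparison known.

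With HME, the lowest log2 fold changes among the 10 genes in Ls174 cells were those of EPHB2, LGR5, ZNRF3 and EPHB3. EPHB3 stood at 1388, 1293 and 1375 CPM in the controls and at 501, 422 and 471 with HME. All 3 treated libraries lay far below all 3 controls, and the spread within each group was small. The log2 fold change was -1.55 (SE 0.19, n = 3 per group), a level 2.92-fold lower, and it stayed between -1.60 and -1.48 when any 1 library was left out.

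EPHB2 stood at 177, 92.2 and 75.3 CPM in the Ls174 controls and at 36.6, 23.0 and 23.5 with HME. The groups did not overlap, although control 1 lay well above the other 2 controls. The log2 fold change was -2.06 (SE 0.37), and -1.59 without control 1.

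LGR5 stood at 9.78, 32.4 and 36.1 CPM in the Ls174 controls and at 8.33, 6.01 and 5.88 with HME. Control 1 lay close to the treated libraries and the other 2 controls lay well above them. The log2 fold change was -1.97 (SE 0.48), and -2.34 without control 1. In HepG2 the gene stood at 12.8, 3.10 and 9.64 CPM in the controls and at 6.29, 4.57 and 3.58 with HME, overlapping groups with a log2 fold change of -0.82 (SE 0.53).

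MYC stood at 107, 34.9 and 29.3 CPM in the Ls174 controls and at 28.2, 13.1 and 21.2 with HME. The highest treated library lay just under the lowest control, and control 1 lay far above all others. The log2 fold change was -1.45 (SE 0.53), and -0.61 without control 1, so its size rested largely on 1 library. In HepG2, MYC stood at 15.7, 14.8 and 16.7 CPM with HME, among or just above the controls (log2 0.23, SE 0.36). In bulk RNA, fewer cells that express a gene and less RNA per cell cannot be told apart.

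ASCL2 stood at 995, 673 and 569 CPM in the Ls174 controls and at 543, 561 and 439 with HME, without overlap but with the groups nearly touching. Its log2 fold change was -0.55 (SE 0.26), and -0.27 without control 1. SOX9 overlapped between treated and control libraries in both lines, with log2 fold changes of -0.19 (SE 0.29) in Ls174 and -0.18 (SE 0.37) in HepG2. The HepG2 value turned to 0.28 without HepG2 control 2, and the Ls174 value was -0.58 without HME 1 and 0.00 without HME 2.

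**Figure D2:**
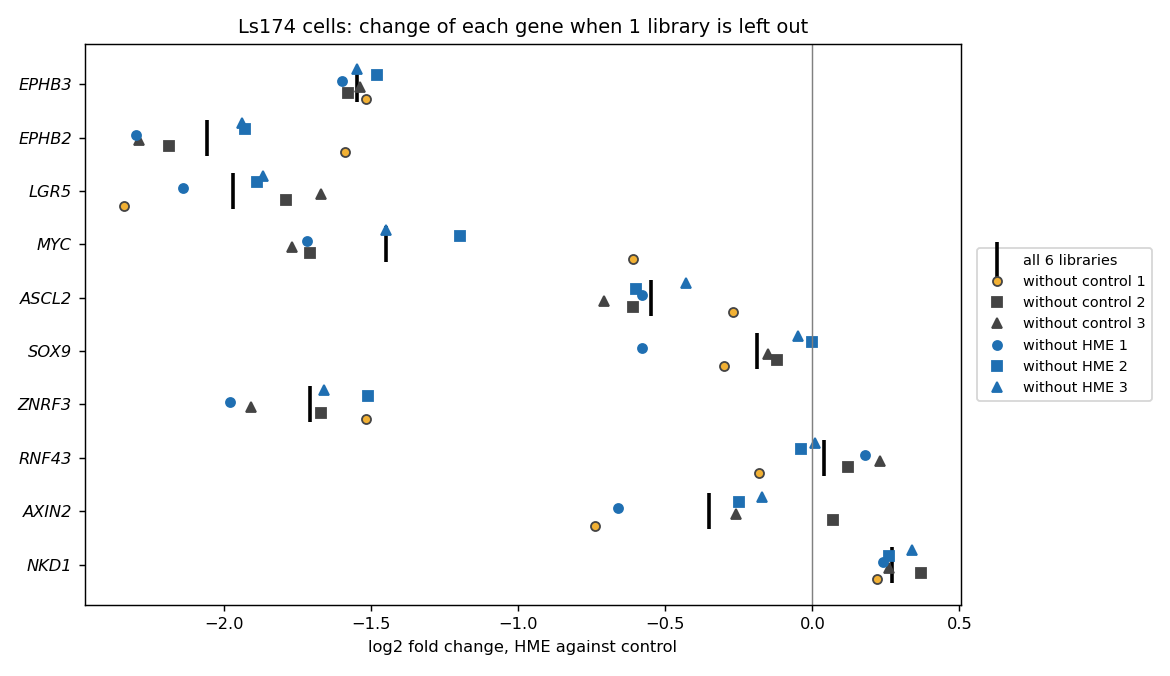
Log2 fold change of each gene in Ls174 cells (x axis) with all 6 libraries (bar) and with 1 library left out (points). EPHB3 moves between -1.60 and -1.48, while leaving out control 1 (yellow) brings MYC from -1.45 to -0.61 and LGR5 from -1.97 to -2.34.

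The 4 feedback genes had fold changes of both signs. ZNRF3 in Ls174 stood at 127, 108 and 72.3 CPM in the controls and at 42.4, 22.3 and 29.4 with HME, without overlap. Its log2 fold change was -1.71 (SE 0.31), between -1.98 and -1.51 with 1 library left out. In HepG2 it stood at 76.7, 364 and 149 CPM in the controls and at 81.0, 59.0 and 97.3 with HME. Control 2 alone was very high there, and the log2 fold change of -1.34 (SE 0.55) became -0.45 without it.

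RNF43, the paralog of ZNRF3, had groups that did not overlap in HepG2 and groups that overlapped in Ls174. In HepG2 it stood at 98.6, 130 and 63.9 CPM in the controls and at 23.6, 40.0 and 34.6 with HME. All treated libraries lay below all controls, with a log2 fold change of -1.57 (SE 0.38), and -1.24 without control 2. In Ls174 it stood at 60.1, 104 and 117 CPM in the controls and at 78.9, 109 and 104 with HME, overlapping groups with a log2 fold change of 0.04 (SE 0.27), and -0.18 without control 1. The response in HepG2 minus that in Ls174 was -1.62 (SE 0.47) on the log2 scale for RNF43 and 1.66 (SE 0.67) for MYC. For this difference 0 of the 10 genes had an adjusted p under 0.05 in edgeR, where 0.644% of 13040 genes did, and these 2 genes passed the study's thresholds (an unadjusted p under 0.05 and a log2 value beyond 0.58), where 13.2% of genes did. Without Ls174 control 1 the difference was -1.38 for RNF43 and 0.85 for MYC, and MYC no longer passed the study's thresholds. EPHB2, EPHB3 and ASCL2 were too near 0 in HepG2 for such a difference to be read.

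NKD1 in HepG2 stood at 125, 89.8 and 135 CPM in the controls and at 192, 172 and 222 with HME. Every treated library lay above every control, with a log2 fold change of 0.77 (SE 0.30). In Ls174 it had 33, 33 and 32 counts with HME and 17, 34 and 36 in the controls and a log2 fold change of 0.27 (SE 0.31) with overlapping groups. AXIN2 overlapped in both lines, with log2 fold changes of 0.59 (SE 0.41) in HepG2 and -0.35 (SE 0.46) in Ls174. The HepG2 value of AXIN2 was 0.29 without control 2 and 0.92 without control 3. Its Ls174 value ranged from -0.74 without control 1 to 0.07 without control 2.

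**Figure D3:**
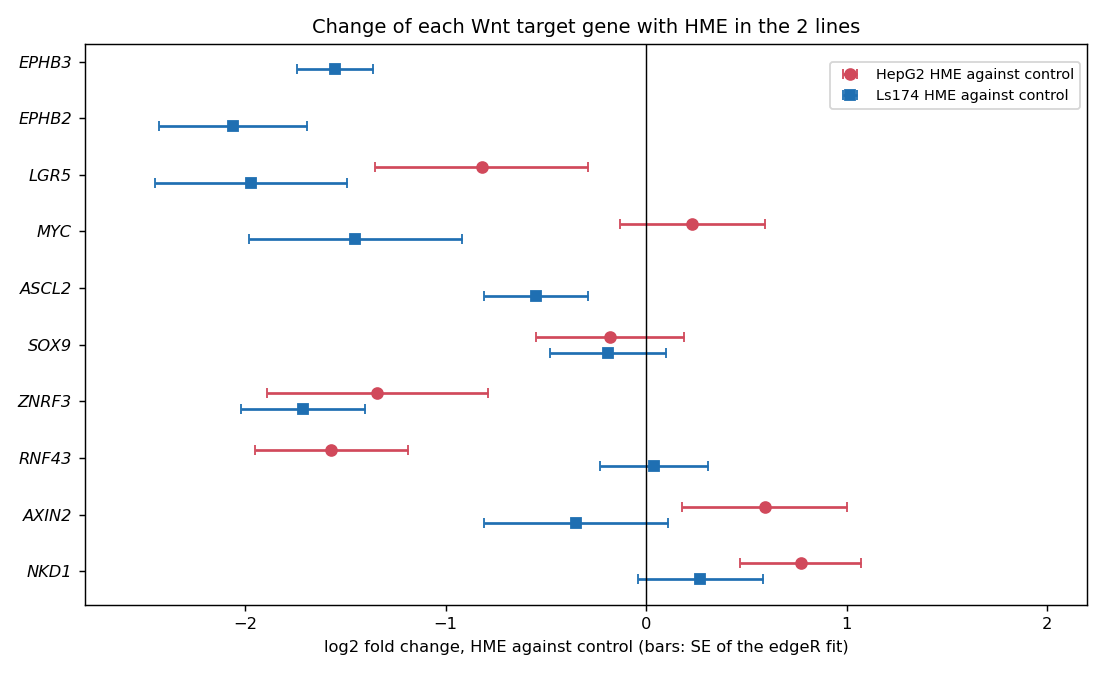
Log2 fold change of each gene, HME against control, in HepG2 (circles) and Ls174 (squares). Bars are the SE worked out from the edgeR fit, as the size of the change over the square root of F. ZNRF3 lies below 0 in both lines, RNF43 lies at -1.57 in HepG2 and 0.04 in Ls174, and EPHB3, EPHB2 and ASCL2 have no HepG2 value because they did not pass the filter on low counts there.

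In Ls174, all 10 genes passed the filter on low counts. Of these, 3 (EPHB2, EPHB3 and ZNRF3) were lower at an adjusted p under 0.05 in edgeR, where 0.866% of all 11319 genes were, and 5 (with LGR5 and MYC) at the study's thresholds, where 7.85% were. For 6 genes the treated libraries all lay below the controls, where 12.2% of all genes did. The 3 calls by adjusted p were lost without control 2, control 3 or any of the 3 HME libraries, with adjusted p in edgeR from 0.0592 to 0.309, and 4 genes were called without control 1. In HepG2, 7 genes passed the filter. By edgeR 0 of these 7 had an adjusted p under 0.05, where 3.31% of 11343 genes did, and DESeq2 called 1 (RNF43). RNF43, ZNRF3 and NKD1 had an unadjusted p under 0.05 and passed the study's thresholds, as 22.2% of all genes did. RNF43 and NKD1 had groups that did not overlap, as 30.8% of all genes did. Nothing is read from these counts either.

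The counts of RNF43 came from 2 regions, the last exon at chr17:56429664-56432303 and a second at chr17:56434147-56434526. The second region held 16.5%, 55.2% and 19.5% of the gene's counts in the HepG2 controls and 16.7%, 19.3% and 13.8% with HME. Only control 2 stood apart, with an exact 95% binomial interval of 48.2% to 62.1%. In the last exon alone, the gene stood at 82.3, 58.2 and 51.4 CPM in the HepG2 controls and at 19.7, 32.3 and 29.9 with HME, again without overlap. In Ls174 the second region held 0% (up to 2.95% by the exact interval), 4.15% and 9.37% in the controls and 5.05%, 10.4% and 14.8% with HME. The last exon region overlaps an antisense gene, BZRAP1-AS1, whose highest count in a library was 11.

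**Figure D4:**
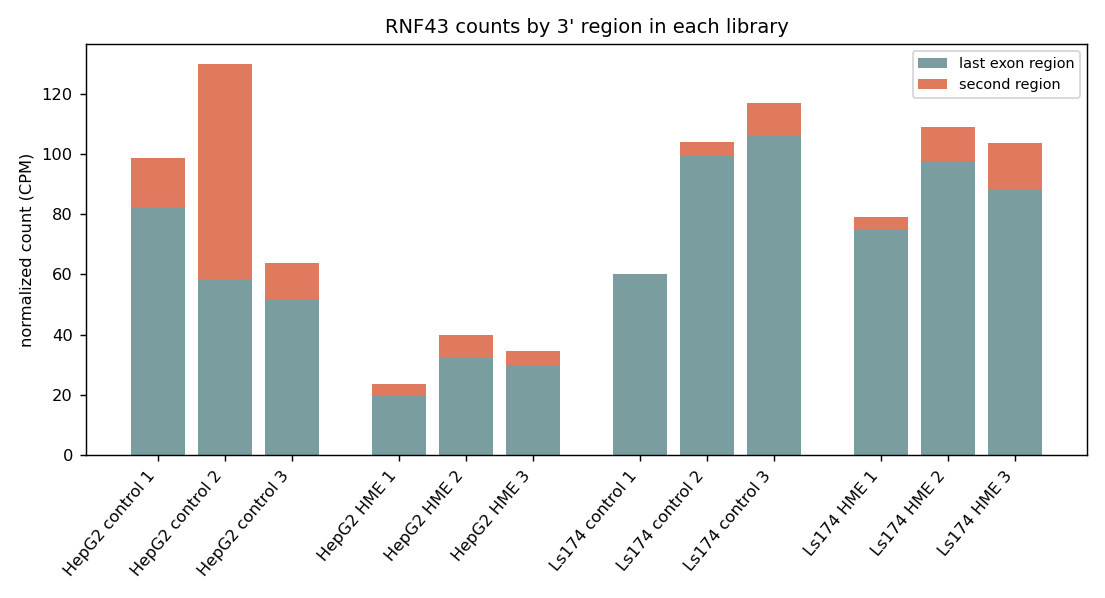
RNF43 CPM in each library (bars from 0), split into the last exon region and the second region. In the last exon region the HepG2 HME libraries (19.7 to 32.3 CPM) lie below the HepG2 controls (51.4 to 82.3), and the second region is large in HepG2 control 2 only.

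The rest of the pathway was followed in lists of its parts, chosen with earlier results of these data known. Of 9 Wnt receptor genes tested in Ls174, 0 passed an adjusted p under 0.05 in edgeR and 2 were lower at the study's thresholds. Over all 11319 genes, 7.85% were lower at those thresholds. The median log2 fold change of the 9 receptor genes was -0.63. Among 20 genes of Dishevelled and the destruction complex, 0 passed either threshold in Ls174, and their median was 0.00. In HepG2, 0 of 9 receptor genes and 0 of 19 destruction complex genes passed an adjusted p under 0.05 in edgeR. At the study's thresholds there, 1 receptor gene was higher and 3 lower, with a median of -0.01. Of the 19 destruction complex genes, 4 were higher and 1 lower, with a median of 0.29. Over all 11343 genes in HepG2, 22.2% passed those thresholds in either direction. CTNNB1, which encodes beta-catenin, stood at 598 ± 179 CPM (SD, n = 3) in the Ls174 controls and 465 ± 23.8 with HME (log2 -0.37, adjusted p 0.545 in edgeR, and -0.11 without control 1). In HepG2, CTNNB1 stood at 341, 539 and 255 CPM in the controls and at 270, 283 and 250 with HME, with overlapping groups. With 1 library left out its HepG2 log2 fold change lay between -0.74 (without control 3) and -0.09 (without control 2). The scaffold gene APC had a log2 fold change of 0.25 in Ls174 and 0.26 in HepG2, and the cyclin gene CCND1 -0.07 and -0.74, none of them past the test. Without Ls174 control 1 the Ls174 values were -0.10 for APC and 0.11 for CCND1, and without HepG2 control 2 the HepG2 values were 0.07 and -0.32. LEF1 had 3 counts or fewer in every library.

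Of 21 other colon targets tested in Ls174, 3 fell and 0 rose at an adjusted p under 0.05 in edgeR, where 98 of all 11319 genes fell (0.866%) and 36 rose. SLC12A2, a sodium, potassium and chloride cotransporter, stood at 824, 626 and 628 CPM in the controls and at 109, 118 and 132 with HME (log2 -2.54, SE 0.22, adjusted p 0.00716 in edgeR). OLFM4, a secreted protein of crypt base cells, stood at 45, 48.7 and 56.5 CPM in the controls and at 20.3, 17.3 and 18.3 with HME (log2 -1.43, SE 0.21, adjusted p 0.031 in edgeR). SMOC2, another gene of the crypt base, stood at 211, 253 and 199 CPM in the controls and at 104, 95.8 and 83 with HME (log2 -1.24, SE 0.20, adjusted p 0.0344 in edgeR). In each of the 3 genes the treated libraries lay below all controls. The call of SLC12A2 was lost without any 1 of the 3 HME libraries (adjusted p in edgeR from 0.127 to 0.184), and those of OLFM4 and SMOC2 also without control 2 or 3 (up to 0.274). Without 1 HME library, edgeR called 0 genes of all those tested, and 854 to 1175 had an unadjusted p under 0.05.

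In HepG2, 3 of 20 genes of the colon list rose and 0 fell at an adjusted p under 0.05 in edgeR, where 314 of all 11343 genes rose (2.77%) and 61 fell. FOSL1, a subunit of the AP-1 transcription factor, stood at 9.85 ± 2.01 CPM in the controls and 54.6 ± 6.97 with HME (log2 2.49, SE 0.34, adjusted p 0.00456 in edgeR). RGMB, a BMP co-receptor, stood at 4.03 ± 0.297 and 19.1 ± 4.86 CPM (log2 2.25, SE 0.40, adjusted p 0.0169 in edgeR). ETS2, a transcription factor, rose by 2.76 on the log2 scale (SE 0.57, adjusted p 0.0326 in edgeR). Of the nuclear partners of beta-catenin, TCF7L2, the main TCF factor of colon epithelium, stood at 26.2, 11.1 and 24.1 CPM in the controls and at 74.7, 64.6 and 59.1 with HME (log2 1.70, SE 0.35, adjusted p 0.0328 in edgeR), and it was the 1 gene called of 15 tested. In Ls174 its log2 fold change was -0.26 (SE 0.23). The call of FOSL1 held with any 1 library left out. That of RGMB was lost without HepG2 control 1 or 3 or HME 2 or 3, that of ETS2 without control 3 or HME 2 or 3, and that of TCF7L2 without any library but control 2 (adjusted p in edgeR up to 0.121).

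Of 10 liver targets tested in HepG2, CYP1A1, a cytochrome P450, rose (log2 2.84, SE 0.44, adjusted p 0.00925 in edgeR) and RHBG, an ammonium transporter, fell by 2.27 on the log2 scale (SE 0.37, adjusted p 0.0119 in edgeR). CYP1A1 is also a classical target of the aryl hydrocarbon receptor. The other 8 did not pass the test. Over all 11343 genes tested in HepG2, 314 rose (2.77%) and 61 fell at an adjusted p under 0.05 in edgeR. The call of CYP1A1 was lost without HepG2 HME 3 (adjusted p 0.0549 in edgeR) and that of RHBG without HME 2 or 3 (0.0733 and 0.0896). In Ls174, CYP1A1 stood at 0, 6.48 and 10.7 CPM in the controls and at 25.7, 41.4 and 25.1 with HME. Of 6 liver targets tested in Ls174, 0 passed an adjusted p under 0.05 in edgeR. At the study's thresholds 1 was higher and 1 lower there, where 465 and 888 of all 11319 genes were.

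Around MYC, 2 of 14 partner and turnover genes rose in HepG2, where 2.77% of all genes did. PIM1, a kinase, stood at 10.4, 7.43 and 12 CPM in the controls and at 205, 103 and 121 with HME (log2 3.84, SE 0.40, adjusted p 0.00208 in edgeR). MXD1, which competes with MYC for its partner MAX, stood at 13.6, 4.33 and 15.3 CPM and at 99.1, 89.2 and 93.1 with HME (log2 3.07, SE 0.42, adjusted p 0.00465 in edgeR). In Ls174, 0 of 15 genes of this list passed either threshold. Of 28 growth and ribosome biogenesis genes bound by MYC, 1 was called in Ls174, the transferrin receptor gene TFRC (log2 -1.48, SE 0.20, adjusted p 0.0255 in edgeR), and the median of the list was 0.02. Over all 11319 genes tested in Ls174, 98 fell (0.866%) and 36 rose. The calls of PIM1 and MXD1 held with any 1 library left out, and that of TFRC was lost without Ls174 control 2 or 3 or any 1 of the HME libraries (adjusted p in edgeR up to 0.269).

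Between the control lines, the other colon targets split, with 5 of 25 genes tested higher and 11 lower in HepG2 at an adjusted p under 0.05 in edgeR. Over all 11907 genes tested, 1686 were higher and 1110 lower by that rule, 23.5% in either direction. The cell surface receptor gene CD44 stood at 0.652 ± 0.137 CPM in HepG2 and 105 ± 8.9 in Ls174 (log2 -7.24, SE 0.44, adjusted p 8e-05 in edgeR). SLC12A2 stood at 20.7 ± 6.31 and 693 ± 114 CPM, and SMOC2 and OLFM4 had no count in any HepG2 control. Of those higher in HepG2, SP5, a transcription factor, stood at 209 ± 88.8 CPM in HepG2 and 0.969 ± 1.18 in Ls174 (log2 7.51, SE 0.78, adjusted p 0.000215 in edgeR), and TNFRSF19, a receptor, at 25.1 ± 11.6 and 0.0848 ± 0.147 (log2 7.42, SE 0.85, adjusted p 0.000351 in edgeR). These 2 genes were picked after their values were seen. Of the secreted inhibitors, NOTUM, which removes a lipid from Wnt ligands, stood at 46.4 ± 3.86 CPM in HepG2 and had no count in the Ls174 controls. DKK1, which blocks LRP receptors, stood at 32.2 ± 11.3 CPM in HepG2 and 0.666 ± 0.623 in Ls174 (log2 5.40, SE 0.69, adjusted p 0.000582 in edgeR). By the same rule, 3 of 8 Wnt receptor genes were higher and 1 lower in HepG2. Of 16 nuclear partners of beta-catenin 3 were higher and 2 lower, and of 10 liver targets 5 and 1. Of 15 MYC partner and turnover genes 0 were higher and 2 lower, and of 28 growth and ribosome biogenesis genes 2 and 1. Of 20 Dishevelled and destruction complex genes, and of 7 other Eph receptors and ephrins, 1 each was higher. Of 2 ligand and secretion genes 1 was lower. The calls of the 8 genes named in this paragraph held with any 1 library left out, while those of SOX4, PHLDA1 and BAMBI, also among the genes listed, were lost in most such fits.

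**Figure D5:**
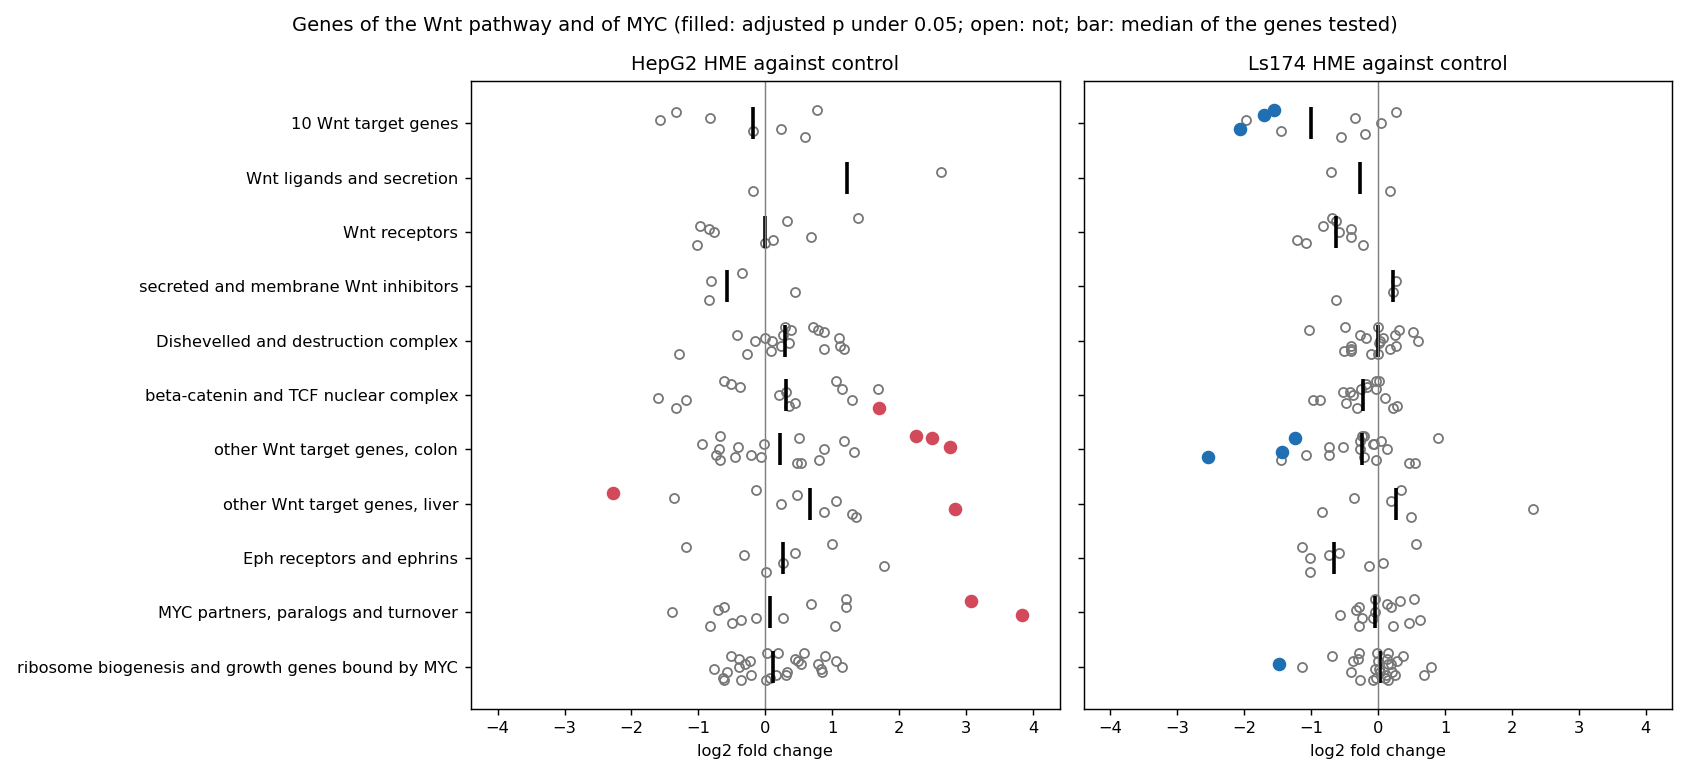
Log2 fold change of every tested gene (points) by list in HepG2 (left) and Ls174 (right), filled where the edgeR adjusted p was under 0.05, with the median of each list as a bar. The called colon targets lie below 0 in Ls174 (-2.54 to -1.24) and above 0 in HepG2 (2.25 to 2.76).

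Over the 12 libraries and 9099 genes compared, the genes whose log2 CPM followed EPHB3 most closely were TMEM80 (r = 0.987), NEURL1B (0.987), TRABD2A (0.986), TPD52 (0.986) and CA9 (0.986). All 5 had higher mean levels in Ls174 than in HepG2, as EPHB3 did. For MYC the closest were SMARCB1 (0.940), MMGT1 (0.939), SRSF3 (0.937), JUP (0.923) and CBFB (0.911). These values are a description over libraries that share lines and treatment.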

How the data were processed

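RNA from HepG2 and Ls174 cells was measured in 12 libraries. The authors prepared 3′ libraries, sequenced them on an Ion Proton instrument, aligned reads with Hisat2 to hg19 and counted them with metaseqR2, and the deposited files hold whole-number counts per 3′ region without normalization. How strand and reads with several alignments were treated is not given in the sources used here. Region counts were added up per gene. edgeR 4.0.16 in R 4.3.3 (TMM, filterByExpr, quasi-likelihood F test, two-sided) was fitted to the 6 libraries of each line, to the 6 controls, and to all 12 libraries for the difference between the lines' responses, with Benjamini-Hochberg adjustment over all genes tested. The binomial test of the study was not used, and edgeR was chosen because it estimates the spread between replicates. Each SE given with an edgeR log2 value was worked out from the F test, as the size of that value divided by the square root of F. The study's thresholds (0.05 for the unadjusted p and 0.58 for the size of the log2 fold change) were applied to these fits as well. Printed CPM come from the 12-library normalization, so their ratios differ slightly from fitted folds. Tables and figures used Python 3.11.15, pandas 2.3.3 and matplotlib 3.10.9. The scripts were tested on simulated data.

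The members and gene lists were chosen with earlier results of these data known. The text names all 10 genes, at most 4 called genes of each list per comparison, CTNNB1, TCF7L2, LEF1, APC and CCND1, and the 5 genes most correlated with EPHB3 and with MYC (prior count 2, mean of at least 10 CPM). The colon list between the control lines departs from this rule. More than 4 of its called genes are named there, while RGMB and further called genes are not. Of the other lists between the control lines, only the called secreted inhibitors are named. The called genes of the remaining lists are only counted. Alternatives were DESeq2 1.42.0, library size or upper quartile scaling, other count filters, the replicate number as a block, a 12-library fit and leaving out each library. No 2 replicates of a group were duplicates by the chi-square of their counts.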

Additional observations from a re-analysis of the deposited data

Results flagged for a closer look

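The difference between the responses of the lines was itself tested in edgeR over all 13040 genes. Of 207 listed genes, chosen with earlier results of these data known and not all tested, 7 were called (adjusted p under 0.05). Of all 13040 genes 84 were called (0.644%), 80 with a positive difference, as in these 7, and 4 with a negative one. The difference on the log2 scale, HepG2 minus Ls174, was 3.59 for PIM1 (adjusted p 0.00643 in edgeR), 2.75 for RGMB (0.0173), 2.12 for SLC12A2 (0.0276), 2.70 for MXD1 (0.0276), 2.22 for TFRC (0.0311), 2.09 for TLE1 (0.0311) and 2.75 for FOSL1 (0.0447). PIM1, MXD1 and FOSL1 rose in HepG2, with log2 fold changes in Ls174 of 0.23, 0.33 and -0.27. SLC12A2 and TFRC fell in Ls174, with log2 fold changes in HepG2 of -0.41 and 0.78. RGMB rose in HepG2 and had a log2 fold change of -0.52 in Ls174, and TLE1, a co-repressor of TCF factors, had values of 1.15 and -0.97. The difference for PIM1 held with any 1 library left out. That of RGMB was lost without HepG2 control 3, HepG2 HME 2 or 3 or Ls174 HME 2 or 3 (adjusted p in edgeR up to 0.0638), and those of the other 5 were lost without any 1 of the Ls174 HME libraries and without further libraries (up to 0.157).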

How the results depend on the processing

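Of 522 fold changes of the 10 genes under alternatives, 508 moved by less than the replicate spread and 14 by more, and no called value changed sign. Values near 0 that were not called changed sign in 1 or more alternatives, among them AXIN2, RNF43 and SOX9 in Ls174 and MYC and SOX9 in HepG2. RNF43 was higher in 10 and lower in 3 of 13 alternatives in Ls174, and higher in 9 and lower in 4 between the control lines. The difference of responses for SOX9 was positive in 8 and negative in 10 of 18. DESeq2 called 1033 genes in HepG2, 434 in Ls174 and 380 for the difference of responses by adjusted p, against 375 in HepG2, 36 higher and 98 lower in Ls174, and 84 for the difference by edgeR. With no filter beyond 1 count, edgeR called 1407, 604 and 367, the study's thresholds gave 3838, 2356 and, between lines, 6452 genes, and 2 of the 10 genes were called in HepG2 and 5 in Ls174. With at least 10 counts in every library, 188 genes were called in HepG2, 910 between lines (2192 at the study's thresholds) and 46 for the difference (1068), with 2 of the 10 genes called between lines (3 at the study's thresholds). Library size scaling called 1 of the 10 genes in HepG2 and 49 genes for the difference, moving the median of all genes in HepG2 from -0.04 to -0.20. Upper quartile scaling and DESeq2 also called 1 of the 10 in HepG2. A single fit of 12 libraries called 807 genes in HepG2 and 4631 between lines, with 1 of the 10 in each HME comparison.

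The labels do not say whether same-numbered samples were handled together. Same-numbered libraries correlated in their deviations from the group mean at -0.150 to 0.073 in HepG2 and -0.060 to 0.006 in Ls174. Between the control lines, same-numbered libraries correlated at -0.375, -0.313 and 0.110, and those of other numbers at -0.281 to 0.347. The value of 0.347 belongs to HepG2 control 2 and Ls174 control 1, the controls that stood apart. Why these deviated together was not tested. Not every library correlated best with its own number. These deviations are taken from means of 3 libraries, with 1 control of each line standing apart, so the correlations cannot exclude a pairing. With the replicate number as a block, 0 genes were called in Ls174 (1192 at an unadjusted p under 0.05 in edgeR), 0 of the 10 genes included, 37 for the difference, and 1 of the 10 in HepG2 passed the study's thresholds.

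Leaving out 1 library gave 95 (without HepG2 HME 3) to 921 (without HepG2 control 2) called genes in HepG2, 0 (without any Ls174 HME library) to 979 (without Ls174 control 1) in Ls174, 2134 to 3366 between lines and 17 to 143 for the difference. At the study's thresholds it gave 1735 to 2873 genes in HepG2, 838 to 1824 in Ls174, 3521 to 4933 between lines and 1341 to 2160 for the difference. Of the 10 genes, 0 to 1 were called in HepG2 (1 to 3 at the study's thresholds), 0 to 4 in Ls174 (4 to 6), 4 to 6 between lines (5 to 7) and 0 to 1 for the difference (1 to 3). The mean share of the second RNF43 region, HME minus control, ranged from -20.8 to -1.43 percentage points in HepG2, the latter without control 2, and from 3.21 to 8.1 in Ls174. At 3 libraries a group, levels of a few counts, such as EPHB3 and ASCL2 in HepG2, cannot be compared between treated and control cells.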
